A study of Homo sapiens with 8 samples.

Results

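The EGF family ligands are secreted or membrane-bound growth factors that share an EGF-like fold and bind receptors of the ERBB family. They were followed here in MDA-MB-231 cells with and without TGFβ. The members are every probe set that the platform annotation assigns to HBEGF, AREG, EREG, TGFA, BTC, EGF, EPGN or NRG1, which gave 18 of 54613 probe sets. These cover 6 of the 8 genes: NRG1 has 6 probe sets, HBEGF 4, TGFA 3, EREG 2, BTC 2 and EGF 1. The annotation used names no probe set for AREG or EPGN, so neither gene was analysed here. All 18 probe sets were kept, since no filter on low values was applied.

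MDA-MB-231 is an established human cell line derived from metastatic breast cancer. All cells carried a retroviral hairpin RNA against GFP, which serves as a control hairpin, and were kept without serum for 24 h. The TGFβ group then received the cytokine TGFβ, which signals through SMAD transcription factors, for 3 h at a labelled dose of 5 µg/ml, and the untreated group did not. TGFβ is usually dosed in ng/ml, so the unit on the label is uncertain. Each group has 4 Affymetrix arrays, called biological replicates A to D. The labels do not say whether these were separate cultures, so the p-values reflect only how these arrays differ among themselves, and the number of arrays limits the precision. The series addresses genes controlled jointly by TGFβ and mutant p53. Cells depleted of p53 were not analysed here.

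Values are the authors' RMA signals, 1 per probe set and array, taken to be on the log2 scale. The median signal of an array was 4.62 to 4.66. Early TGFβ target genes served as a check that the treatment acted. SMAD7, an inhibitory SMAD, rose by 1.81 ± 0.21 (log2, SE, adjusted p = 0.0039), and JUNB, an AP-1 subunit, rose by 1.64 ± 0.11 (adjusted p = 0.000168). PMEPA1 rose as well (2.24 ± 0.41, adjusted p = 0.0418), although not past the threshold without TGFβ replicate B, C or D or untreated replicate C or D (adjusted p = 0.0849 to 0.148) or with the mean of its probe sets (adjusted p = 0.0844). SKIL (1.41 ± 0.35) did not pass over genes (adjusted p = 0.157, and 0.00205 with replicate letters as a block). Markers known for the line (VIM, CD44, AXL and EGFR) averaged 9.66 to 13.65 in the groups. Of the luminal and epithelial markers ESR1, PGR and CDH1 averaged 3.12 to 5.83, while GATA3 and EPCAM averaged 7.33 to 8.39. CDH1 averaged 4.98 in the TGFβ group and 4.08 in the untreated group and rose (0.90 ± 0.11 SE, adjusted p = 0.00579); its part in the results was not tested. Among markers of other cells, PTPRC, CDH5 and ADIPOQ averaged 2.57 to 4.35. PECAM1, a marker of endothelial cells, averaged 7.16 in the TGFβ group and 7.59 in the untreated group without overlap (log2 fold change -0.43 ± 0.12 SE, adjusted p = 0.207, and 0.0155 with the block), and its part in the results was not tested. On the array of TGFβ replicate A the control probe sets for the 3′ end of ACTB read 1.68 (log2) above those for its 5′ end, against 0.63 to 0.89 on the other 7 arrays. For GAPDH the difference was 0.54 on that array, against 0.06 to 0.14 on the others.

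EGF family ligands are made as transmembrane precursors. Metalloproteases of the ADAM family, among them ADAM17 for several of the ligands, cut them at the cell surface. The freed ligand binds its receptor on the same or a neighbouring cell. HBEGF, EREG and BTC bind both EGFR and ERBB4. TGFA and EGF, like the AREG that was not analysed here, bind EGFR. NRG1 binds ERBB3 and ERBB4. Bound receptors pair up and activate the RAS to ERK cascade and PI3 kinase, and this activity in turn induces several of the ligand genes. In carcinomas, including breast cancer, such loops are known as a source of autocrine growth signals.

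HBEGF and EREG are the members with the largest differences, in opposite directions, and their promoters are shown for that reason. EPGN, EREG, AREG and BTC are consecutive protein-coding genes on chromosome 4 in the RefSeq annotation, whereas HBEGF lies on chromosome 5. The sequences are the 250 bases before each RefSeq gene start in GRCh38.p14, read 5′ to 3′ on the gene's strand. Capitals mark matches, on either strand, to CAGAC, the core of the SMAD binding element, or to TGANTCA, the binding sequence of AP-1, where N is any base. The HBEGF window is chr5:140346604-140346853 on the minus strand and the EREG window chr4:74364895-74365144 on the plus strand.
HBEGF: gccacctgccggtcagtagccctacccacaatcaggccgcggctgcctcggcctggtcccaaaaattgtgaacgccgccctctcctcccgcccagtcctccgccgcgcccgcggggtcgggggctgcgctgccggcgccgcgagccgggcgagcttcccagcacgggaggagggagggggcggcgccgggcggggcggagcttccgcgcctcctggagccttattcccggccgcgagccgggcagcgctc
EREG: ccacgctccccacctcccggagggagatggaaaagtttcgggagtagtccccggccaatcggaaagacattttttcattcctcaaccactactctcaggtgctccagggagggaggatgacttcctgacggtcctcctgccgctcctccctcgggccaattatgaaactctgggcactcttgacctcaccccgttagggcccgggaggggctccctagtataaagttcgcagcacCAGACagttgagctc
The EREG window holds 1 match to CAGAC, at position -15 from the gene start, and none to TGANTCA. The HBEGF window, of which 76.4% is G or C, holds neither sequence. Of 35116 promoter windows of the same length, 38.0% hold CAGAC and 6.57% hold TGANTCA. A match in such a window describes its letters and was not tested against any binding data.

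HBEGF, the heparin-binding ligand of EGFR and ERBB4, was the member that rose. Its brightest probe set, 203821_at, read 10.50, 10.67, 10.02 and 9.96 in TGFβ replicates A to D, against 9.47, 9.41, 8.88 and 8.99 in untreated replicates A to D. Every TGFβ array lay above every untreated array. The log2 fold change was 1.10 ± 0.19 (SE, 95% interval 0.67 to 1.52), a 2.14-fold increase. In the limma fit over 19775 genes, where this probe set stands for HBEGF, the adjusted p was 0.0296 (0.000111 with the replicate letter as a block). In that fit 0.576% of all genes passed, and HBEGF was the 1 ligand gene of 6 that did. With the letter as a block 3.57% of all genes passed, among them 2 of the 6 ligand genes, HBEGF and EREG. These are values of whole cultures, so a change in the number of cells that express a gene and a change in RNA per cell cannot be told apart.

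A further HBEGF probe set, 38037_at, gave nearly the same picture. It read 10.05, 10.20, 9.54 and 9.39 in TGFβ replicates A to D and 9.00, 8.87, 8.42 and 8.44 in untreated replicates A to D, again without overlap. Its log2 fold change was 1.11 ± 0.20 (SE), or 2.16-fold. Both probe sets had their higher pair of values under the letters A and B in each group, so the letters shared the level while the shift between the groups stayed between 0.94 and 1.33 (log2) in every pair of the same letter.

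The other HBEGF probe sets showed little difference. Probe set 244857_at read 5.63, 5.42, 5.51 and 5.29 in TGFβ replicates A to D, against 5.54, 5.27, 5.25 and 5.14 in untreated replicates A to D, and the groups overlapped (log2 fold change 0.16 ± 0.11 SE). Its TGFβ array was the higher one in 4 of 4 pairs of the same letter, by 0.09 to 0.25. It passed over probe sets in neither fit (adjusted p = 0.819, and 0.461 with the block). Probe set 222076_at, whose signal lay below the median of every array, averaged 3.83 ± 0.13 in the TGFβ group and 3.84 ± 0.11 in the untreated group (SD, n = 4 each). With the mean of the 4 probe sets in place of the brightest, HBEGF had a log2 fold change of 0.59 and did not pass (adjusted p = 0.0802).

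Over all 54613 probe sets the same comparison is adjusted for more tests. There 203821_at and 38037_at had adjusted p of 0.0577 and 0.0734, so that none of the 18 ligand probe sets passed, where 0.256% of all probe sets did. With the letter as a block both passed (adjusted p = 0.000763 and 0.000853), as did EREG 205767_at, where 1.75% of all probe sets passed. The 2 HBEGF probe sets were the members whose groups did not overlap, 2 of 18, against 4.75% of all probe sets. The median log2 fold change was -0.003 over the 18 ligand probe sets and 0.013 over all probe sets.

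The HBEGF call over genes needs most of the arrays when the letters are ignored. The log2 fold change was 0.97 to 1.21 in the 8 fits that each left out 1 array, but the adjusted p was 0.0671 without TGFβ replicate B, 0.0522 without TGFβ replicate C, 0.0562 without TGFβ replicate D, 0.126 without untreated replicate C and 0.118 without untreated replicate D. With the letter as a block HBEGF passed whichever letter was left out, with adjusted p of 1.37e-05 to 0.00236.

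**Figure D1:**
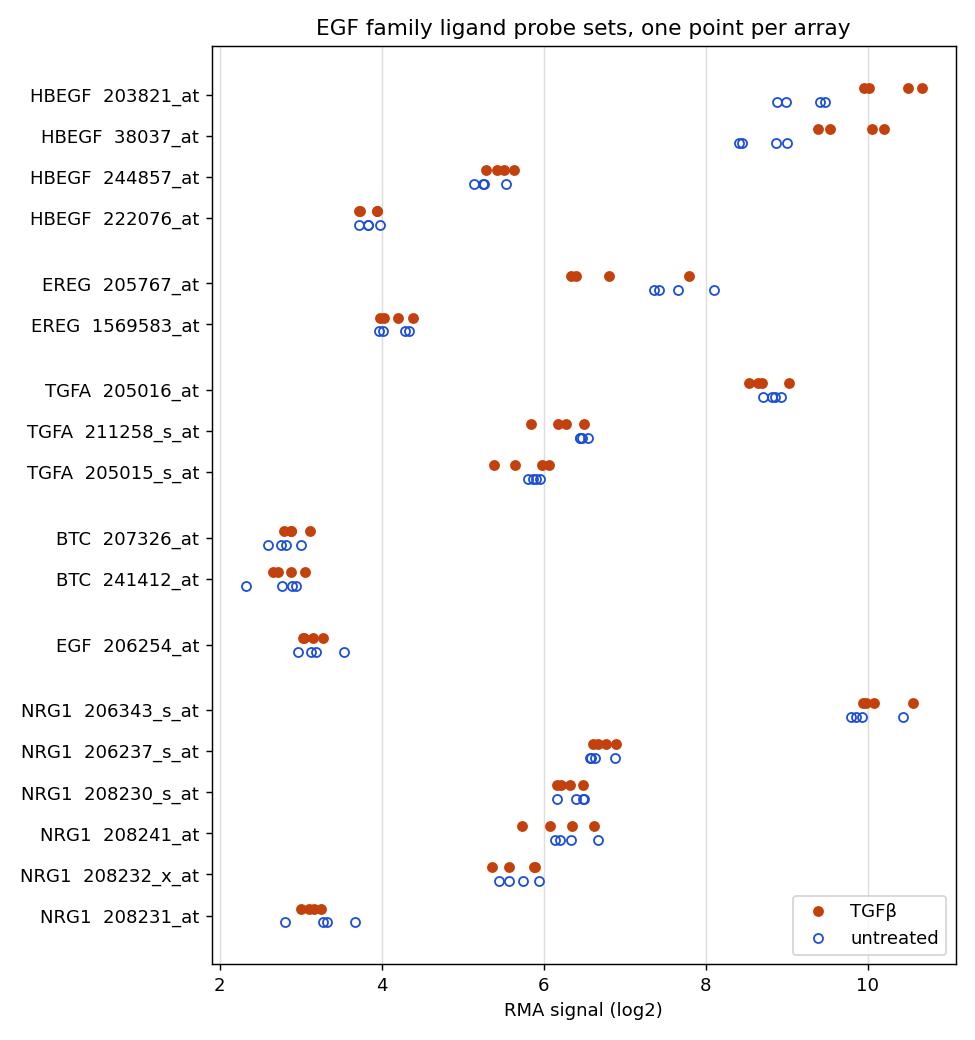
RMA signal (log2, x axis) of the 18 ligand probe sets, 1 point per array, with TGFβ arrays filled and above the open points of untreated arrays. HBEGF 203821_at and 38037_at are separated between the groups, EREG 205767_at is shifted the other way with overlap, and the other probe sets overlap.

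EREG encodes epiregulin, a ligand of EGFR and ERBB4. Its probe set 205767_at read 7.80, 6.81, 6.34 and 6.39 in TGFβ replicates A to D, against 8.10, 7.65, 7.43 and 7.36 in untreated replicates A to D. TGFβ replicate A lay above 3 of the 4 untreated arrays, and the other 3 TGFβ arrays lay below all of them. The TGFβ array was the lower one in 4 of 4 pairs of the same letter, with differences of -0.30 in A, -0.84 in B, -1.09 in C and -0.97 in D (log2, TGFβ minus untreated).

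The log2 fold change of EREG was -0.80 ± 0.29 (SE, 95% interval -1.45 to -0.15), and it did not pass over genes (adjusted p = 0.443). With the letter as a block it passed (-0.80 ± 0.12 SE, adjusted p = 0.00552). The value turned on replicate A, whose TGFβ array has the 3′ excess given above. Without TGFβ replicate A the log2 fold change was -1.12 and passed over genes (adjusted p = 0.025), and in the other fits without 1 array it lay between -0.89 and -0.64 and did not pass. With the block and without letter C the adjusted p was 0.0508. Over probe sets the blocked call of 205767_at (adjusted p = 0.0188) did not pass without letter B, C or D (adjusted p = 0.12, 0.103 and 0.095). With the mean of both probe sets EREG had a log2 fold change of -0.40 and did not pass (adjusted p = 0.414). The part of the 3′ excess in these values was not tested. The other EREG probe set, 1569583_at, lay below the median of every array and averaged 4.15 ± 0.18 in the TGFβ group and 4.15 ± 0.19 in the untreated group (SD, n = 4 each).

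**Figure D2:**
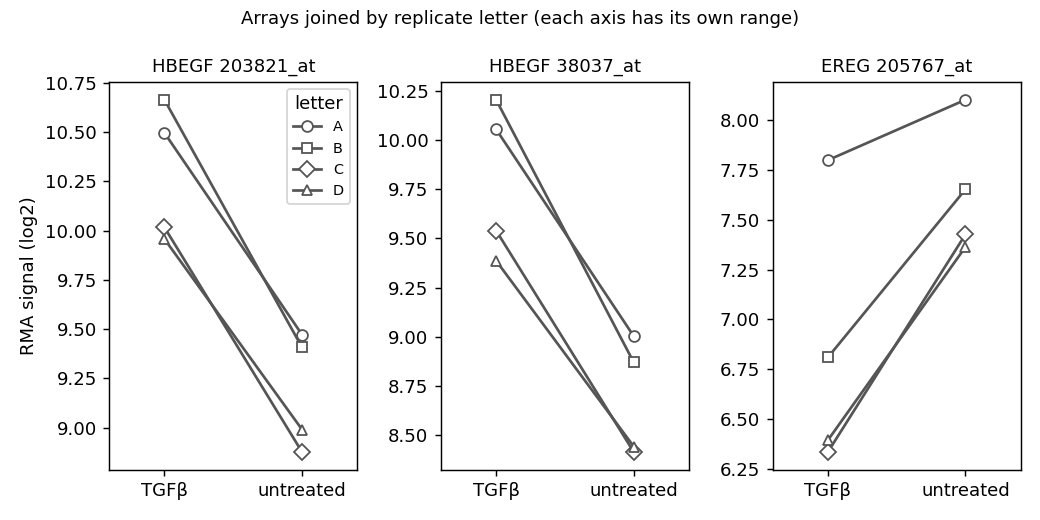
RMA signal (log2, y axis, own range per panel) of HBEGF 203821_at, HBEGF 38037_at and EREG 205767_at, with TGFβ arrays left, untreated arrays right and a line for each replicate letter. The 4 lines of each HBEGF probe set run nearly parallel, with the TGFβ array 0.94 to 1.33 higher, and the EREG lines run the other way, with the smallest step in letter A.

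TGFA encodes transforming growth factor alpha, a ligand of EGFR that is unrelated to TGFβ despite its name. Its brightest probe set, 205016_at, read 9.03, 8.53, 8.64 and 8.70 in TGFβ replicates A to D, against 8.93, 8.81, 8.70 and 8.85 in untreated replicates A to D. The groups overlapped, and the log2 fold change was -0.10 ± 0.12 (SE, 95% interval -0.36 to 0.16, adjusted p = 0.906 over probe sets).

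TGFA 211258_s_at was the only probe set of the 18 besides EREG 205767_at with the TGFβ array lower in all 4 pairs of the same letter. It read 5.85, 6.27, 6.18 and 6.50 in TGFβ replicates A to D, against 6.45, 6.44, 6.47 and 6.55 in untreated replicates A to D. The log2 fold change of -0.28 ± 0.13 (SE) did not pass over probe sets in either fit (adjusted p = 0.69, and 0.296 with the block). The lowest value was that of TGFβ replicate A, which was also lowest in the third probe set, 205015_s_at (5.38, 5.65, 5.98 and 6.06 in TGFβ replicates A to D, against 5.86, 5.80, 5.91 and 5.95 in untreated replicates A to D). That array has the 3′ excess given above. Without it the log2 fold change was -0.16 in 211258_s_at and 0.014 in 205015_s_at, against -0.28 and -0.11 with all arrays. The part of the 3′ excess in these values was not tested.

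NRG1 encodes neuregulin, the ligand of ERBB3 and ERBB4, and its many transcripts differ in their ends. None of its 6 probe sets passed. The brightest, 206343_s_at, read 10.55, 9.97, 10.08 and 9.94 in TGFβ replicates A to D, against 10.43, 9.79, 9.93 and 9.86 in untreated replicates A to D. The TGFβ array was the higher one in 4 of 4 pairs of the same letter, by 0.08 to 0.18, while replicate A stood highest in both groups and the groups overlapped. Its log2 fold change was 0.13 ± 0.17 without the block and 0.13 ± 0.08 with it (SE, adjusted p = 0.918 and 0.546 over probe sets).

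The remaining NRG1 probe sets had log2 fold changes of both signs. They were 0.067 in 206237_s_at, -0.094 in 208230_s_at, -0.14 in 208241_at, 0.006 in 208232_x_at and -0.14 in 208231_at, each smaller than its SE. Probe set 208231_at lay below the median of every array, with 3.00 to 3.26 in the TGFβ group and 2.81 to 3.67 in the untreated group. The 95% interval of the brightest NRG1 probe set, -0.25 to 0.52, leaves room for a change of either sign.

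BTC, which encodes betacellulin, and EGF, the founding member of the family, had low signals in all arrays. BTC 207326_at read 2.88, 2.88, 3.11 and 2.79 in TGFβ replicates A to D, against 2.59, 3.01, 2.76 and 2.82 in untreated replicates A to D. BTC 241412_at lay at 2.66 to 3.05 in the TGFβ group and at 2.32 to 2.94 in the untreated group. EGF 206254_at read 3.04, 3.27, 3.03 and 3.15 in TGFβ replicates A to D, against 2.96, 3.53, 3.13 and 3.19 in untreated replicates A to D. The 3 probe sets lay below the median of every array, their groups overlapped, and their adjusted p over probe sets was 0.869 to 0.937. RMA gives no detection call, so these signals cannot be told from background, and a change in transcripts of this kind would be understated.

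**Figure D3:**
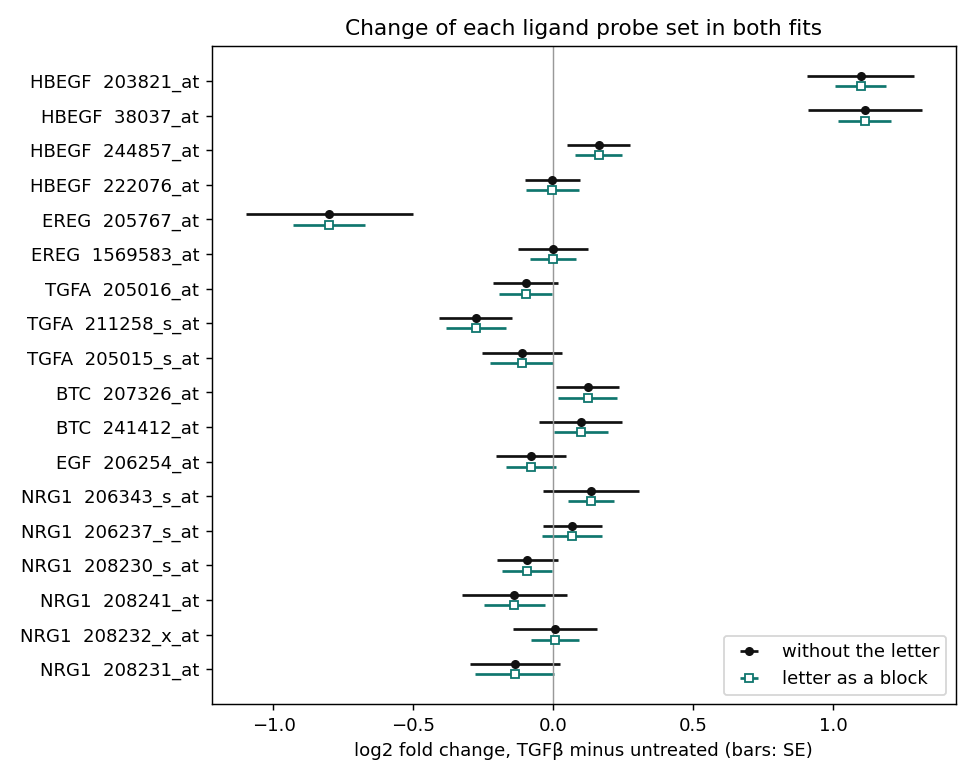
Log2 fold change (TGFβ minus untreated, x axis) of each ligand probe set with its SE, in the fit without the replicate letter (filled) and with the letter as a block (open). HBEGF 203821_at and 38037_at lie at 1.10 and 1.11, EREG 205767_at lies at -0.80, and the remaining ones lie between -0.28 and 0.16.

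The genes whose profile over the 8 arrays was most like that of HBEGF were TMCC1, STARD13, C3orf52, SEMA7A and GLIS3. Likeness was measured as the root mean square difference after subtracting each gene's mean, which was 0.13 for TMCC1, 0.15 for STARD13, 0.17 for C3orf52, 0.20 for SEMA7A and 0.20 for GLIS3 (log2), where HBEGF itself spanned 1.79. For EREG, which spanned 1.77, they were MITF at 0.18, TGFBR3 at 0.19, MYBL1 at 0.21, KCTD12 at 0.21 and LIFR at 0.22. TGFBR3 encodes a co-receptor of TGFβ and LIFR a cytokine receptor. The genes were picked for likeness to HBEGF or EREG over these same arrays, so the direction of their change follows from the choice. Of those like EREG, TGFBR3 (-1.12, adjusted p = 0.164, and 0.000541 with the block) passed with the block only. So did LIFR (-0.65, adjusted p = 0.483, and 0.0153 with the block) and MITF (-0.565, adjusted p = 0.504, and 0.0155 with the block). MYBL1 and KCTD12 passed in neither fit (adjusted p = 0.0734 and 0.0519 with the block).

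Around the ligands, 60 measured genes of receptors, ligand release, signal transduction and feedback were listed with earlier results of these data known. Of these 2 rose, 3 fell and 55 did not pass, where 0.576% of all genes passed, and their median log2 fold change was -0.040 against 0.009 over all genes. With the block 5 rose and 6 fell, where 3.57% of all genes passed. The other neuregulins NRG2, NRG3 and NRG4 had log2 fold changes of -0.054, 0.11 and 0.047, and none passed.

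Among the receptors ERBB3 fell. ERBB3, a receptor for neuregulins with little kinase activity of its own, read 5.44, 5.58, 5.39 and 5.52 in TGFβ replicates A to D, against 6.86, 6.57, 6.22 and 6.13 in untreated replicates A to D. The groups did not overlap (log2 fold change -0.96 ± 0.15 SE, adjusted p = 0.0206), but 2 of its 5 probe sets had that direction, and with the mean of its probe sets it did not pass (-0.38, adjusted p = 0.28). It also failed to pass without TGFβ replicate C, TGFβ replicate D or untreated replicate B (adjusted p = 0.0655, 0.0775 and 0.0547).

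EGFR, the receptor of HBEGF, EREG and TGFA, read 10.53, 11.46, 10.66 and 10.77 in TGFβ replicates A to D, against 10.79, 10.92, 10.62 and 10.36 in untreated replicates A to D. It differed by 0.18 ± 0.20 (log2, SE) and did not pass (adjusted p = 0.908). ERBB2, the receptor without a ligand of its own, had -0.12 ± 0.10 (adjusted p = 0.863). ERBB4 had -0.19 ± 0.10 (adjusted p = 0.724). The groups overlapped in all 3 of these receptors.

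Of 13 genes for the release and handling of the ligands 1 rose and 12 did not pass, where 0.576% of all genes passed. ADAM19, a metalloprotease that can cut neuregulin, read 8.70, 8.94, 8.89 and 8.73 in TGFβ replicates A to D, against 7.03, 8.26, 7.34 and 7.42 in untreated replicates A to D (log2 fold change 1.30 ± 0.22 SE, adjusted p = 0.0263), and its other probe set did not share that direction. The mean of its probe sets gave a smaller log2 fold change of 0.63 and passed (adjusted p = 0.0318). ADAM19 passed in 2 of the 8 fits that left out an array. It did not pass without TGFβ replicate B, C or D (adjusted p = 0.0684, 0.0825 and 0.0915) or without untreated replicate A, C or D (adjusted p = 0.0535, 0.122 and 0.101). FRMD8, which binds and stabilises the iRhom partners of ADAM17, passed with the block only. It read 8.60, 9.09, 9.51 and 9.52 in TGFβ replicates A to D, against 6.93, 8.09, 8.30 and 8.34 in untreated replicates A to D, with no overlap (1.27 ± 0.31 SE, adjusted p = 0.143, and 0.000205 with the block), a direction shared by all 4 of its probe sets. ADAM17 itself had a log2 fold change of -0.030 ± 0.12 (adjusted p = 0.987), and RHBDF2, an iRhom, had -0.049 ± 0.13 (adjusted p = 0.975).

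None of 9 genes that restrain ERBB receptors passed. The median log2 fold change over the list was -0.26, against 0.009 over all genes. The list was drawn up with earlier results of these data known, and a shared direction was not tested. LRIG2 read 6.05, 6.12, 5.70 and 5.45 in TGFβ replicates A to D, against 6.27, 6.60, 6.41 and 6.65 in untreated replicates A to D (-0.65 ± 0.16 SE, adjusted p = 0.13, and 0.0293 with the block). The blocked call of LRIG2 was lost without letter B, C or D (adjusted p = 0.0983, 0.153 and 0.104), and the mean of its probe sets gave -0.17 (adjusted p = 0.628). LRIG3 had -0.83 ± 0.21 (adjusted p = 0.153, and 0.0549 with the block) at a mean signal of 3.06 in the TGFβ group and 3.89 in the untreated group. None of 8 adaptors and kinases between receptor and ERK passed, where 0.576% of all genes did. GAB1, a docking protein, had -0.28 ± 0.13 (adjusted p = 0.658), and SOS1, an activator of RAS, had -0.17 ± 0.15 (adjusted p = 0.862).

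Of 11 feedback inhibitors of RAS and MAP kinase signalling 2 fell and 9 did not pass, where 0.576% of all genes passed. SPRY1, a Sprouty inhibitor of receptor tyrosine kinase signalling, read 6.64, 6.19, 7.06 and 6.99 in TGFβ replicates A to D, against 8.53, 8.18, 8.64 and 8.42 in untreated replicates A to D (-1.73 ± 0.18 SE, adjusted p = 0.0021). SPRED2, a relative of the Sprouty proteins, read 8.29, 8.41, 8.58 and 8.46 in TGFβ replicates A to D, against 8.98, 9.37, 9.24 and 9.34 in untreated replicates A to D (-0.80 ± 0.11 SE, adjusted p = 0.0102). SPRED2 did not pass without untreated replicate C or untreated replicate D (adjusted p = 0.0529 and 0.0503), or with the mean of its probe sets (-0.53, adjusted p = 0.0831). With the block 2 of the 11 rose and 4 fell, where 3.57% of all genes passed.

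Of 12 early target genes of EGF receptor and ERK signalling 1 rose and 11 did not pass, where 0.576% of all genes passed. JUN, an AP-1 subunit, read 10.70, 11.01, 10.71 and 10.79 in TGFβ replicates A to D, against 9.93, 10.23, 9.85 and 9.83 in untreated replicates A to D (0.84 ± 0.12 SE, adjusted p = 0.0102). It did not pass without TGFβ replicate D, untreated replicate C or untreated replicate D (adjusted p = 0.0508, 0.0564 and 0.0503). The list had a median log2 fold change of 0.10, against 0.009 over all genes. FOS, FOSL1 and EGR1 had 0.092, -0.12 and 0.13 with adjusted p of 0.96 to 0.982. Larger differences that did not pass were those of FOSB (0.71, adjusted p = 0.634), PLAUR (0.33, adjusted p = 0.178) and IER2 (0.29, adjusted p = 0.618). In these genes and in IER3 (0.11, adjusted p = 0.823) the TGFβ array was higher in 4 of 4 pairs of the same letter. In ETV5 (-0.24, adjusted p = 0.743) it was lower in 4 of 4 pairs, and ETV4 had -0.16 (adjusted p = 0.953).

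**Figure D4:**
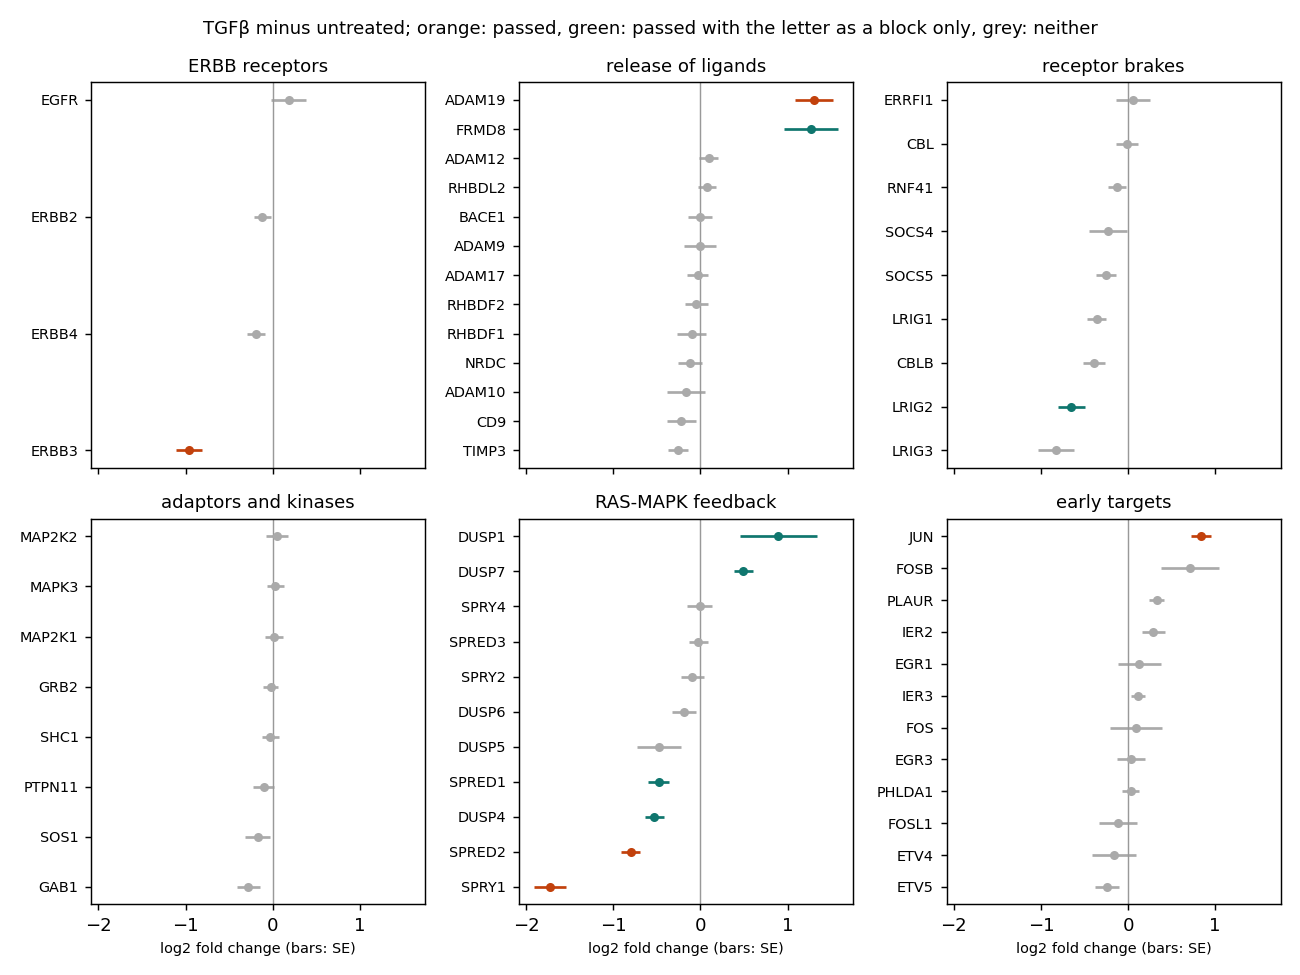
Log2 fold change (TGFβ minus untreated, x axis) with its SE, 1 point per gene. The panels hold the receptors, release genes, genes listed as receptor brakes, adaptors and kinases, feedback inhibitors and early targets. ADAM19 and JUN rose and ERBB3, SPRED2 and SPRY1 fell (orange), and green points, among them FRMD8 and LRIG2, passed with the replicate letter as a block only.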

How the data were processed

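The authors deposited 1 log2 value per probe set and array, produced by RMA according to the submitters' processing notes. The RMA version and the set of arrays normalized jointly are not stated in what was used here. The log2 base was inferred from the range of the values. Affymetrix control probe sets (62 of 54675) were left out. Gene names came from the 2016 platform annotation of GEO, and each of 19775 genes was represented by its probe set with the highest mean. TGFβ and untreated arrays were set against each other in limma 3.58.1 (R 4.3.3; lmFit, eBayes, two-sided). Benjamini-Hochberg adjustment ran over all genes or all probe sets, with a threshold of 0.05.

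The replicate letters A to D recur in both groups. Deviations from the group mean, taken over genes, correlated by 0.49, 0.69, 0.34 and 0.30 between the arrays of letters A, B, C and D. TGFβ arrays A, B and C matched the untreated array of their own letter best, and TGFβ array D matched untreated array C best. On the basis of the same-letter correlations the letters were taken to pair the arrays, since the labels do not say what a letter stands for. The blocked calls rest on this choice, which was made from the same values. The match of TGFβ array D to untreated array C leaves the pairing under letter D uncertain. Results of the blocked fit are given where they change a call or a count.

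The members, gene lists and tests were chosen with earlier results of these data known. The named genes are all members, each list's genes that passed or else its 2 with the smallest p, all ERBB receptors, early TGFβ targets, and for members spanning at least 1 (log2) the 5 genes of most similar profile among those above the median level. Other genes are named for their place in the pathway and were picked after their values were seen. Some genes of the pathway are not reported here. The fit was tested on simulated data. Alternatives were the block, the upper 60% of signals, centring, quantile normalization again, a trended robust prior, the mean of probe sets, no _x_at or _s_at probe sets and leaving out each array. The block fit without each letter was added after seeing the data. Figures used matplotlib 3.10.9.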

Additional observations from a re-analysis of the deposited data

How the results depend on the processing

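Blocking by replicate letter raised the calls most. That replicate block gave 705 genes and 954 probe sets in place of 114 and 140, and 2 ligand genes, 3 ligand probe sets and 11 pathway genes in place of 1, 0 and 5. In the block fits without letter A, B, C or D the counts were 1304, 288, 321 and 356 genes, and 1416, 282, 389 and 384 probe sets. The ligand genes called there were 2 without A, B or D and 1 without C, the ligand probe sets were 3 without A and 2 in the other fits, and the pathway genes were 16 without A and 7 in each of the other fits. Leaving out single arrays gave 46 to 232 genes, 33 to 240 probe sets, 0 to 2 ligand genes, 0 to 1 ligand probe sets and 2 to 6 pathway genes, with the highest count of each without TGFβ replicate A. The mean of probe sets called 0 ligand genes, and the trended robust prior called 1 ligand probe set, HBEGF 203821_at (adjusted p = 0.0405). HBEGF 203821_at and 38037_at and EREG 205767_at kept their direction under every alternative run.

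Sign changes were limited to results that did not pass. Over the fits without 1 array the log2 fold change ranged from -0.161 to 0.028 for EGF, -0.005 to 0.276 for NRG1 206343_s_at, -0.044 to 0.042 for HBEGF 222076_at, -0.080 to 0.062 for EREG 1569583_at, -0.212 to 0.014 for TGFA 205015_s_at, -0.039 to 0.167 for BTC 241412_at, -0.282 to 0.014 for NRG1 208241_at, -0.071 to 0.110 for NRG1 208232_x_at, -0.122 to 0.004 for NRG2 and -0.022 to 0.291 for EGFR. In block fits it was 0.008 for TGFA 205015_s_at, -0.014 for NRG1 206237_s_at and -0.019 for NRG3 without letter A, 0.024 for EREG 1569583_at and 0.018 for NRG2 without B, -0.039 for NRG1 208232_x_at without C, and 0.075 for HBEGF 222076_at and 0.038 for NRG1 208231_at without D. NRG1 had -0.027 with the mean of probe sets and -0.139 without _x_at and _s_at probe sets, ERBB2 had 0.034 with the mean of probe sets, and NRG1 208232_x_at had -0.008 with centring. The cause of these changes was not tested. The low signals of BTC and EGF limit what could be seen there.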
